A study of Mus musculus with 69 samples.

Results

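The genes described here fold and inspect proteins in the endoplasmic reticulum (ER) of mouse liver, or belong to the unfolded-protein response. They were chosen from a list of 40 gene symbols, and each probe set of the deposited table that carried a listed symbol was taken. Of the 40, 38 were measured, each by 1 of the 17306 probe sets, and Ero1l and Ero1lb appear under their current names Ero1a and Ero1b. Sec61b and Sec61g were not analysed here. The rule itself uses no measured value, although the list was drawn up with results of these data known.

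Each array measured liver RNA of 1 male C57BL/6 mouse aged 10 weeks, taken from the centre of its left lateral lobe after a single gavage dose. Low, medium and high doses of acetaminophen (APAP), a painkiller toxic to liver when overdosed, were 168.75, 225 and 300 mg/kg. Those of isoniazid (INZ), a drug against tuberculosis, were 22, 44 and 88 mg/kg. Those of the redox-cycling herbicide paraquat (PQ) were 12.5, 25 and 50 mg/kg. Mice were sampled after 1 day at every dose and after 2 days at the high doses, with 5 arrays per group and 4 for the medium dose of PQ, 69 arrays in all. The vehicle mice, 5 per day, were labelled for APAP only and served for all compounds of that day, so comparisons of different compounds with vehicle share their controls. The number of arrays limits the precision, and values are deposited log2 signals, on which a difference of 1 is a fold of 2.

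The ER is where secreted and membrane proteins enter, fold, form disulfide bonds and receive sugars, and hepatocytes, which secrete most plasma proteins, carry much of it. When unfolded protein accumulates, 3 sensors in the ER membrane, IRE1 (gene Ern1), ATF6 and PERK (gene Eif2ak3), signal to the nucleus and to the ribosome. XBP1 and ATF6 then raise chaperones, folding enzymes, the entry channel and the machinery of ER-associated degradation, which returns misfolded proteins to the cytosol. Xbp1 is activated by splicing of its RNA and ATF6 by cleavage of the protein. The table held 1 signal per gene, which measures neither step.

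The ER stress response element (ERSE), which is CCAAT and CCACG with 9 bases of any kind between them, is the promoter motif known to be bound by ATF6 and XBP1 together with NF-Y, and it was searched on both strands of promoter windows from RefSeq (GRCm38.p6), from 250 bases before each gene's start to 50 bases after it. Windows were at hand for 32 of the 38 genes, and those for Derl1, Ssr2, Hyou1, Atf6, Sec61a1 and Manf were not used here. The motif was present in 10 of the 32 (31.2%), against 37 of 27025 genes of the table of promoters (0.137%). These were Hspa5, Hsp90b1 with 2 copies, Dnajc3, Pdia6, Ero1b, Creld2, Calr, Canx, Syvn1 and Derl3. The 37 genes include these 10. Because the 38 were listed as genes of ER folding and of this response, a higher share can follow from that choice. It is no result of the measured data. The shorter ERSE-II, which is ATTGG and CCACG with 1 base of any kind between them, was found in Herpud1 and Dnajb11, against 12 genes in all (0.0444%), and the UPR element TGACGTGG in Txndc5 alone, against 193 genes (0.714%). The windows below show 6 genes that were higher after APAP and, last, 2 that did not pass the test, so that the motif can be read beside both outcomes. Capitals mark the motif, and each sequence runs 5′ to 3′ in the direction of its gene, so that an ERSE on the opposite strand, as in Creld2, Calr and Ero1b, starts with CGTGG and ends with ATTGG.
Hspa5: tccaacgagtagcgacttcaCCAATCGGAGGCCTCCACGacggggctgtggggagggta
Syvn1: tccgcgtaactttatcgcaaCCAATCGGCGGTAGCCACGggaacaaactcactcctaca
Dnajc3: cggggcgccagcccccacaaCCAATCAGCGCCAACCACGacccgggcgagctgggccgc
Canx: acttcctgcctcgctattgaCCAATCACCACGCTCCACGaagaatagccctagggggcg
Creld2: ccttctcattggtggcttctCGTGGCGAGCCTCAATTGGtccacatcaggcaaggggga
Calr: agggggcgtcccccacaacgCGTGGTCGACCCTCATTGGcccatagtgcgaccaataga
Ero1b: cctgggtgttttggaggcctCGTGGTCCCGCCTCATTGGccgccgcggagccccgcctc
Herpud1: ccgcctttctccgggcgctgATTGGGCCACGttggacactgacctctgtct
On GRCm38.p6 the Hspa5 window lies at chr2:34772005-34772063 on the plus strand, and its motif spans the bases 65 to 47 before the start. The Syvn1 window lies at chr19:6046512-6046570 (plus), Dnajc3 at chr14:118937807-118937865 (plus) and Canx at chr11:50325780-50325838 (minus). The Creld2 window lies at chr15:88819500-88819558 (plus), Calr at chr8:84847055-84847113 (minus), Ero1b at chr13:12565662-12565720 (plus) and Herpud1 at chr8:94386357-94386407 (plus). A match describes these letters only, and shows neither a bound site nor a cause.

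Before any group mean is read, the single livers have to be described, because most of the 38 genes were high together in some mice and not in others of the same group. An array's count of genes above every vehicle array of its day was 33 in APAP low replicate 1 and 32 in APAP medium replicate 4. It was 32, 34 and 31 in APAP high replicates 2, 3 and 5, and 33 in PQ high replicate 1. In these 6 arrays, picked out here after their values were seen, between 28.7% and 30% of all probe sets lay above every vehicle array, and 1 to 3 of the 38 genes lay below every vehicle array. Each of the 6 was among the 6 highest of the 49 arrays of day 1 for 30 to 34 of the 38 genes, and the array that came next, APAP medium replicate 1, for 5. That next array had 26 genes above every vehicle array and APAP high replicate 4 had 19, whereas APAP high replicate 1 had 3. The other APAP low arrays had 2 to 5, the other PQ high arrays 0 to 4, and the INZ arrays of day 1 between 1 and 18. Vehicle arrays, each set against the other 4 of its day, had 1 to 20 on day 1 and 3 to 17 on day 2.

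**Figure D1:**
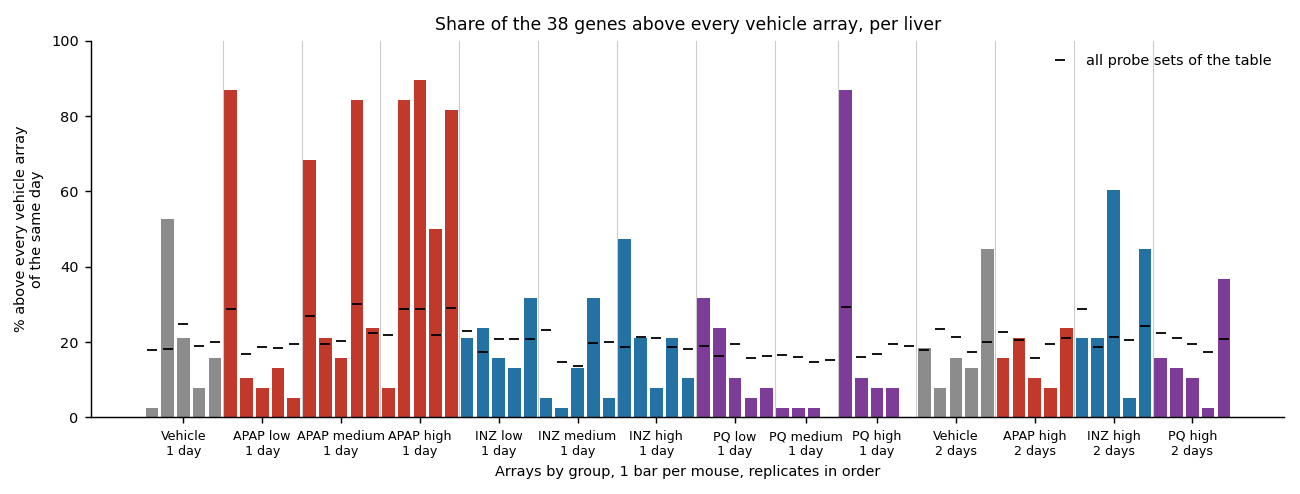
Bars give, for each array, the percentage of the 38 genes above every vehicle array of the same day (vehicle arrays against the other vehicle arrays of their day), and black marks give the same percentage of all probe sets; colours are grey for vehicle, red for APAP, blue for INZ and purple for PQ. At 1 day 6 bars stand above 80%, in APAP low, APAP medium, APAP high and PQ high, while the first bar of APAP high is at 7.89%.

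The same 6 arrays stood apart over the whole table as well. On the first principal component of all probe sets, which held 43.3% of the variance, they lay between 58.99 and 71.18, and each other array lay at 28.83 or below. APAP high replicate 1 lay at -12.72, inside the range of the vehicle arrays of day 1 and day 2 (-14.36 to -7.91) (PQ high replicate 1 lay at 62.35). Within their groups APAP low replicate 1, APAP medium replicate 4 and PQ high replicate 1 each lay far from the other 4 arrays, and the high dose of APAP spread from -12.72 to 71.18, so results that change without such an array are given both ways. Array titles carry numbers whose meaning the labels do not state, and both APAP high replicate 1 and PQ high replicate 1 are among the 11 arrays numbered above 190. The labels were kept as given. Whether these 2 arrays carry the right label could not be tested from the files, and the means of both groups rest on it.

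**Figure D2:**
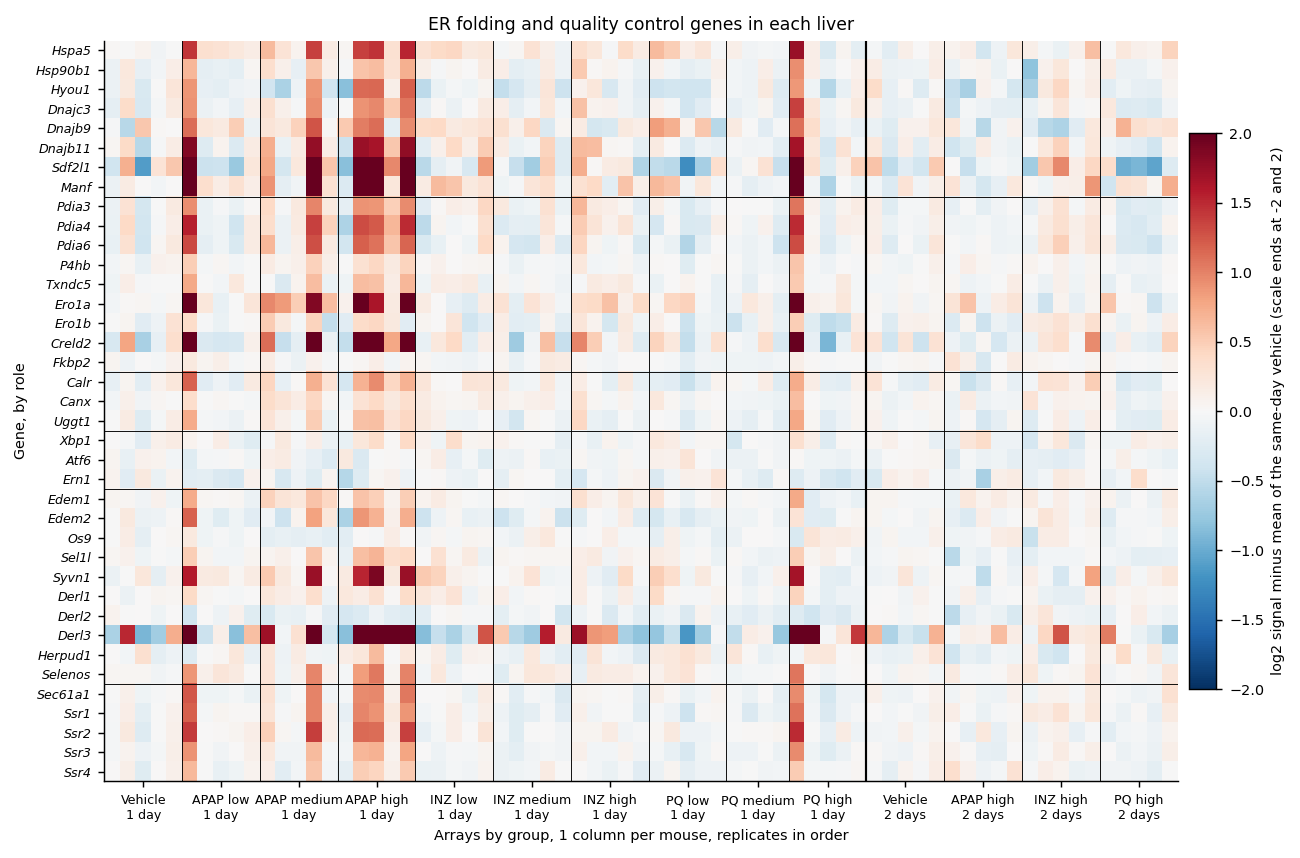
Each row is 1 of the 38 genes, ordered by role, and each column 1 liver, ordered by group; colour gives the log2 signal minus the mean of the same-day vehicle arrays, on a scale that ends at -2 and 2. The dark red columns are APAP low replicate 1, APAP medium replicate 4, APAP high replicates 2, 3 and 5 and PQ high replicate 1, and the rows of Xbp1, Atf6, Ern1, Fkbp2, Os9 and Derl2 stay pale in them.

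Untreated livers also differed among themselves in some of these genes. Derl3, a derlin of ER-associated degradation, read 5.49, 7.63, 5.19, 5.42 and 6.84 in the vehicle arrays of day 1. Sdf2l1, a partner of the Hspa5 cochaperone Dnajb11, spanned 7.70 to 9.52 there, and Creld2, an ER protein induced by stress, 7.89 to 9.33. These 3 genes had the widest vehicle ranges of the 38 and were named after their values were seen. Vehicle replicate 2 was the highest vehicle array in all 3 and replicate 3 the lowest. Hspa5, by contrast, spanned 0.14 among the same arrays and Ero1a 0.10. The median SD of the 38 genes over vehicle arrays of day 1 was 0.15, against 0.11 for all probe sets.

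APAP at the high dose was compared with vehicle 1 day after dosing, which asks what the largest dose did to the ER programme. In limma over all 69 arrays, 26 of the 38 genes were higher (adjusted p under 0.05), 1 was lower and 11 did not pass the test. Over all probe sets 14.8% were higher and 15.3% lower, 30.1% in either direction. The median log2 difference of the 38 genes was 0.46, beside -0.05 for all probe sets. Chaperones, folding enzymes, lectin chaperones and the translocon carried most of the calls, and the sensors none. The SD of the 38 genes within the group had a median of 0.46, against 0.15 in vehicle, so the test, which shares 1 spread over all groups, uses less spread than these mice show. Fitted on the 10 arrays compared alone, limma called 0 of the 38 and 0.104% of all probe sets. An exact two-sided permutation test of each gene over the same 10 arrays, which cannot go below p = 0.00794, gave an unadjusted p under 0.05 for 12 of the 38 genes and for 28.6% of all probe sets. Without APAP high replicate 5, 8 genes were called, without replicate 3, 11, without replicate 2, 13, and without replicate 1, 31. Calls over all probe sets can change with the same arrays, and their shares in these fits are not given here. These counts therefore show no change particular to the 38 genes. Groups that did not overlap were rare, with Ero1a alone higher and Derl2 alone lower, beside 2.99% and 4.21% of all probe sets.

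**Figure D3:**
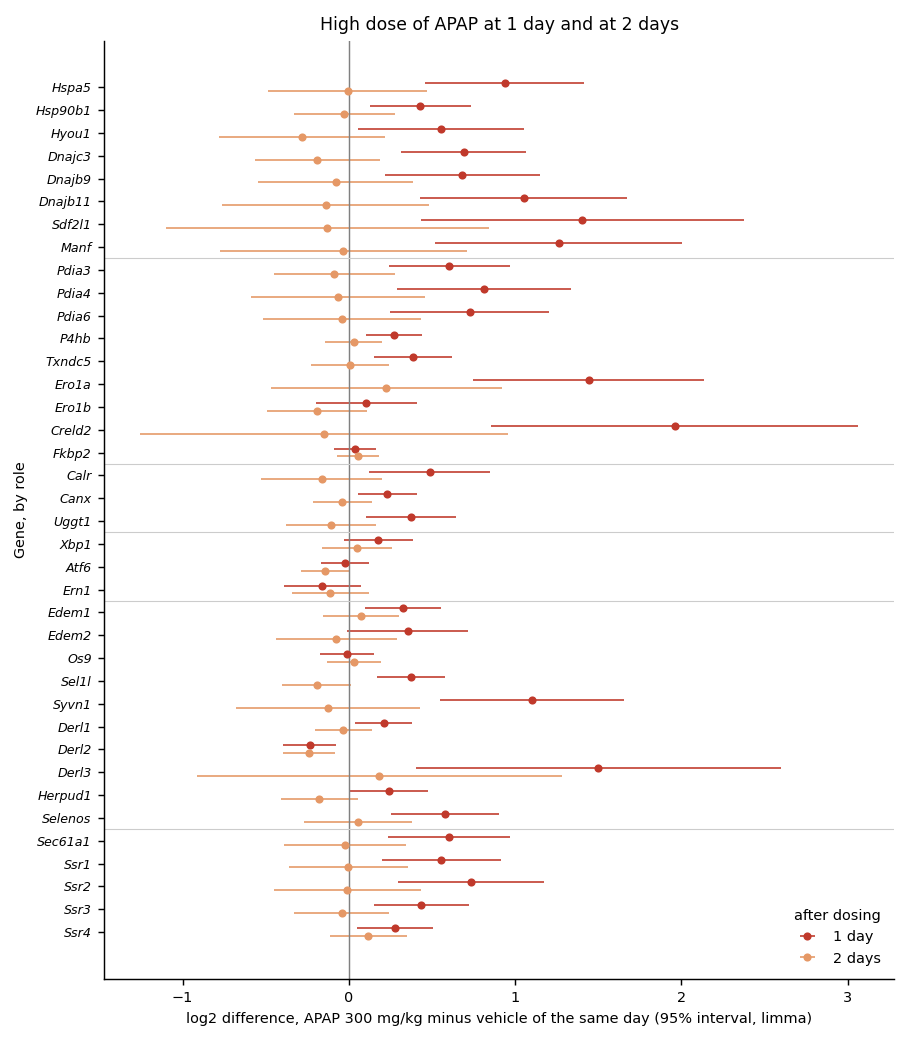
Points are log2 differences of the high dose of APAP from the vehicle of the same day for the 38 genes, ordered by role and separated by grey lines, with 95% intervals from limma; red is 1 day and orange 2 days. At 1 day Creld2 is furthest right at 1.96 and Derl2 furthest left at -0.24, and at 2 days the points lie between -0.28 and 0.23.

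Among chaperones and cochaperones of the ER lumen, 7 of 8 rose (14.8% of all probe sets), with a median of 0.81. Hspa5 (BiP), the central Hsp70 chaperone of the ER, read 10.66, 10.64, 10.71, 10.57 and 10.64 in vehicle. At the high dose of APAP it read 10.68, 12.01, 12.09, 10.95 and 12.17 in order of replicate. Replicates 2, 3 and 5 were far above vehicle, replicate 4 was above it by less, and replicate 1 lay inside the vehicle range. The mean rose from 10.64 ± 0.05 (SD, n = 5) by 0.94 (SE 0.24, adjusted p = 0.00314), or 1.91-fold, and the exact permutation p was 0.0159. Dnajc3 (p58IPK), a J-domain cochaperone of Hspa5 that also inhibits PERK, read 8.83, 9.37, 8.68, 8.96 and 9.19 in vehicle and 9.0, 9.90, 9.97, 9.53 and 10.08 at the high dose. The APAP arrays lay above every vehicle array except replicate 1, and Dnajc3 rose by 0.69 (SE 0.19, adjusted p = 0.00492). Hyou1, a nucleotide exchange factor of Hspa5, read 5.46, 5.76, 5.26, 5.55 and 5.81 in vehicle and 4.73, 6.71, 6.72, 5.68 and 6.76 at the high dose. Its replicates 2, 3 and 5 were high but replicate 1 was below every vehicle array, and its difference of 0.55 did not pass the test (adjusted p = 0.0851), while without replicate 1 it was 0.90 and passed. The other risers were Sdf2l1 (1.40), Manf (1.26), an ER-resident partner of Hspa5 that is secreted under stress, the cochaperones Dnajb11 (1.05) and Dnajb9 (0.68), and Hsp90b1 (0.43), the Hsp90 of the ER.

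Among the enzymes of disulfide formation and related folding steps, 7 of 9 rose (14.8% of all probe sets), with a median of 0.60. Creld2 read 8.22, 9.33, 7.89, 8.38 and 8.88 in vehicle and 8.07, 11.57, 11.62, 9.31 and 11.93 at the high dose. Replicates 2, 3 and 5 lay more than 2 log2 units above every vehicle array, and replicates 1 and 4 lay inside the vehicle range. With 1.96 (SE 0.55, adjusted p = 0.00632), or 3.89-fold, Creld2 had the highest mean difference of the 38, but its exact permutation p was 0.0714. Ero1a, the oxidase that recharges protein disulfide isomerases, read 4.83, 4.91, 4.93, 4.84 and 4.92 in vehicle and 4.96, 7.67, 6.53, 5.06 and 7.41 at the high dose. All 5 APAP arrays lay above every vehicle array, replicates 1 and 4 only slightly, and Ero1a rose by 1.44 (SE 0.35, adjusted p = 0.0021; exact permutation p = 0.00794). Its paralog Ero1b, which carries an ERSE, read 9.32, 9.38, 9.09, 9.22 and 9.61 in vehicle and 9.10, 9.69, 9.74, 9.52 and 9.10 at the high dose. The groups overlapped, with 2 APAP arrays above every vehicle array, and the difference was 0.10 (adjusted p = 0.637). The disulfide isomerases rose by 0.81 (Pdia4), 0.73 (Pdia6), 0.60 (Pdia3), 0.39 (Txndc5) and 0.27 (P4hb). Fkbp2, a prolyl isomerase, read 10.58, 10.44, 10.53, 10.50 and 10.61 in vehicle and 10.53, 10.57, 10.67, 10.47 and 10.61 at the high dose. Its groups overlapped almost fully, and its difference was 0.04 (SE 0.06, adjusted p = 0.703), or -0.06 with arrays centred on their medians.

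All 3 members of the cycle that holds glycoproteins until they are folded rose (14.8% of all probe sets), with a median of 0.37. Calr (calreticulin), the soluble lectin chaperone, read 10.07, 10.28, 10.02, 10.31 and 10.46 in vehicle and 9.89, 10.93, 11.18, 10.65 and 10.92 at the high dose. APAP replicates 2 to 5 were above every vehicle array and replicate 1 below, and Calr rose by 0.49 (SE 0.18, adjusted p = 0.0361). Uggt1, which puts glucose back on glycoproteins that are not yet folded, read 7.31, 7.48, 7.06, 7.28 and 7.48 in vehicle and 7.31, 7.91, 7.92, 7.60 and 7.74 at the high dose. Replicate 1 again lay inside the vehicle range and the rest above it, and Uggt1 rose by 0.37 (SE 0.14, adjusted p = 0.0306). Canx (calnexin), the membrane-bound lectin, rose by 0.23 (SE 0.09, adjusted p = 0.042). With arrays centred on their medians, none of the 3 passed the test, at 0.40, 0.28 and 0.14 in the same order.

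The sensors and transcription factors of the list showed no call, 0 of 3 with limma, and 0 at an unadjusted p under 0.05, beside 41.3% of all probe sets. Xbp1 read 11.54, 11.48, 11.30, 11.62 and 11.68 in vehicle and 11.37, 11.75, 11.89, 11.55 and 11.93 at the high dose. Replicates 2, 3 and 5 lay above every vehicle array by small steps, and the difference was 0.18 (SE 0.10, adjusted p = 0.197), or 0.26 and past the test without replicate 1. Atf6 read 7.17, 6.96, 7.20, 7.18 and 7.05 in vehicle and 7.31, 6.81, 7.11, 7.13 and 7.08 at the high dose. The groups overlapped on both sides, and the difference was -0.02 (SE 0.07, adjusted p = 0.842). Ern1 read 4.69, 4.38, 4.82, 4.49 and 4.69 in vehicle and 4.05, 4.36, 4.66, 4.71 and 4.51 at the high dose. Its vehicle mean of 4.61 was the lowest of the 38 genes, close to the array medians (4.23 to 4.56), and its difference of -0.16 did not pass the test (adjusted p = 0.305).

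**Figure D4:**
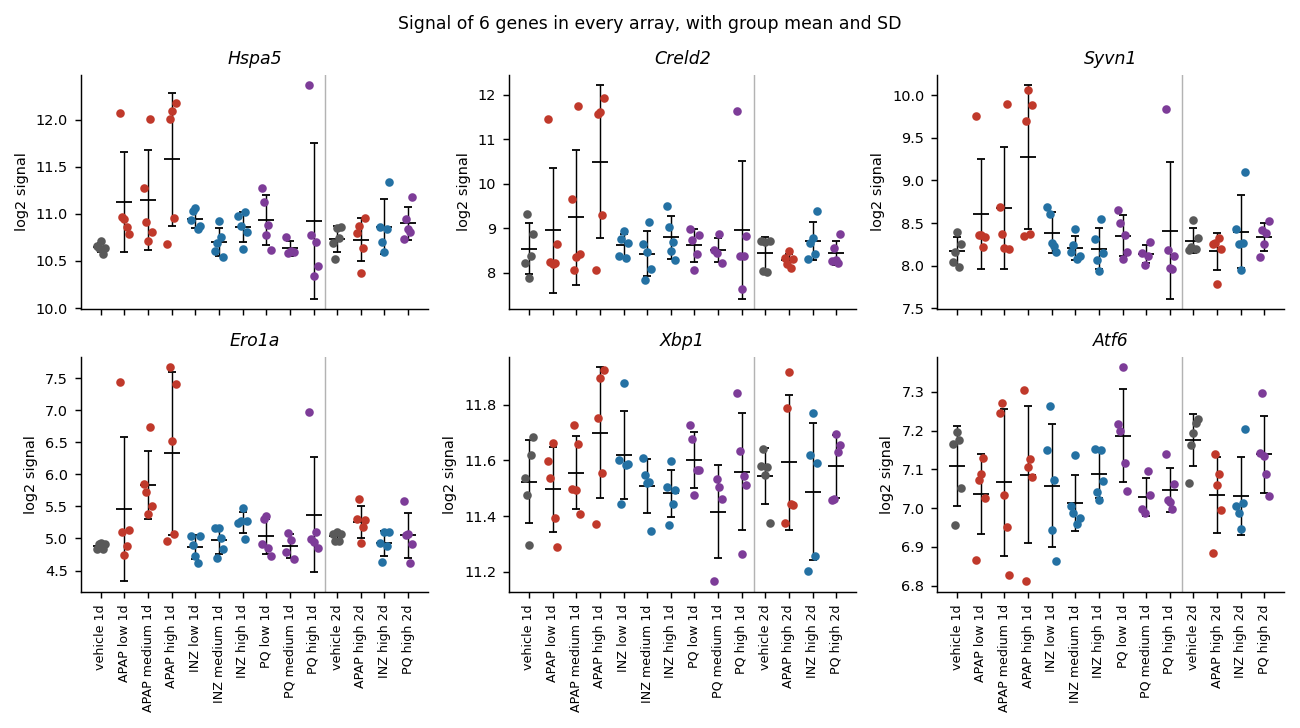
Each panel shows the log2 signal of 1 gene in every array by group, with the group mean and SD as bars and a grey line between day 1 and day 2. Hspa5, Creld2, Syvn1 and Ero1a have separate high points in APAP low, APAP medium, APAP high and PQ high at 1 day, Xbp1 spans 11.17 to 11.93 and Atf6 6.81 to 7.36 over all groups (each panel has its own axis).

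Of the 10 genes of ER-associated degradation, 5 rose and 1 fell, beside 14.8% and 15.3% of all probe sets. The other 4 did not pass the test, and the median of the 10 was 0.34. Syvn1 (HRD1), the ubiquitin ligase of the ER membrane, read 8.05, 8.16, 8.39, 7.99 and 8.25 in vehicle and 8.35, 9.70, 10.06, 8.37 and 9.89 at the high dose. Replicates 2, 3 and 5 were high and replicates 1 and 4 lay at the top of the vehicle range, and Syvn1 rose by 1.10 (SE 0.28, adjusted p = 0.00282). Sel1l, the adaptor that holds Syvn1 and its substrates together, read 7.64, 7.69, 7.53, 7.59 and 7.57 in vehicle and 7.46, 8.21, 8.29, 7.94 and 8.0 at the high dose. All APAP arrays except replicate 1, which was below vehicle, lay above every vehicle array, and Sel1l rose by 0.37 (SE 0.10, adjusted p = 0.00541). Derl3 rose by 1.50 (SE 0.55), Selenos, a partner of the derlins, by 0.58, and Edem1, which trims mannose from misfolded glycoproteins, by 0.32. Edem2 (0.35), Herpud1 (0.24), Derl1 (0.21) and the lectin Os9 (-0.01) did not pass the test.

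Derl2, a further derlin, was the exception in direction. It read 9.92, 9.84, 9.85, 9.76 and 9.85 in vehicle and 9.50, 9.57, 9.75, 9.64 and 9.58 at the high dose. All 5 APAP arrays, replicate 1 included, lay below every vehicle array, and Derl2 fell by 0.24 (SE 0.08, adjusted p = 0.0185; exact permutation p = 0.00794). In the high dose of PQ it read 9.59, 9.45, 9.62, 9.56 and 9.73, again below every vehicle array (0.74% of all probe sets), but the difference of -0.26 was not called (adjusted p = 0.614), and these 2 comparisons share their vehicle arrays. At 2 days it read 9.77, 9.78, 9.70, 9.80 and 9.76 in vehicle and 9.24, 9.59, 9.68, 9.62 and 9.46 with APAP. All APAP arrays lay below every vehicle array there too, beside 3.37% of all probe sets, and the difference of -0.24 (SE 0.08) did not pass the test (adjusted p = 0.0629).

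Of the 5 translocon genes measured, 4 rose (14.8% of all probe sets), with a median of 0.56. These genes build and assist the channel through which proteins enter the ER. Sec61a1, the channel itself, read 8.0, 8.12, 7.93, 7.99 and 8.04 in vehicle and 7.97, 8.95, 8.98, 8.11 and 9.08 at the high dose. Replicates 2, 3 and 5 were high and replicates 1 and 4 lay inside the vehicle range, and Sec61a1 rose by 0.60 (SE 0.18, adjusted p = 0.0105). Ssr1 to Ssr4 encode the translocon-associated protein complex. Ssr2 read 8.17, 8.40, 7.95, 8.20 and 8.31 in vehicle and 8.12, 9.34, 9.32, 8.34 and 9.57 at the high dose. The same 3 replicates were high, and Ssr2 rose by 0.73 (SE 0.22, adjusted p = 0.00985), Ssr1 by 0.56 and Ssr3 by 0.43. Ssr3 read 11.47, 11.59, 11.41, 11.48 and 11.63 in vehicle and 11.46, 12.19, 12.21, 11.59 and 12.31 at the high dose. Ssr4 read 11.66, 11.77, 11.41, 11.65 and 11.75 in vehicle and 11.48, 12.14, 12.08, 11.75 and 12.17 at the high dose. Both again had replicates 2, 3 and 5 above every vehicle array and replicates 1 and 4 inside the vehicle range, and Ssr4, at 0.28, did not pass the test (adjusted p = 0.0606).

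Read beside the promoters, 10 of the 12 genes with an ERSE or ERSE-II were higher, with a median of 0.71, and Ero1b and Herpud1 were the 2 that were not. Of the 20 genes with a window and neither motif, 13 were higher and 1, Derl2, lower, with a median of 0.37. Among the genes outside the list that were on the array, 2 of the 9 with an ERSE were higher and 2 lower, with a median of -0.12, and 2 of the 7 with an ERSE-II were higher and 0 lower, with a median of 0.09. Over all probe sets 14.8% were higher and 15.3% lower in this comparison of the high dose of APAP with vehicle at 1 day. No difference between these sets was tested.

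Other genes of the same pathways were counted from further lists for the high dose of APAP at 1 day, where 14.8% of all probe sets were higher and 15.3% lower. Of 9 genes of the PERK arm, which slows translation and can promote cell death, 4 rose and 1 fell. Atf3, a transcription factor of this arm, rose by 2.09 (SE 0.53), Ddit3 (CHOP), which can promote cell death, by 0.96 (SE 0.27) and the sensor Eif2ak3 by 0.50 (SE 0.12). The vehicle means of Atf3 (4.05) and Eif2ak3 (3.53) lay below the lowest array median, so neither was shown to be above background in untreated liver. Of 8 further sensors and proteases, 3 rose, the membrane-bound factors Creb3l2 (0.97), Atf6b (0.85), whose vehicle mean of 3.97 was also below the lowest array median, and Creb3 (0.31). Of 18 further folding genes 7 rose and 2 fell, among them Dnajc10, a disulfide reductase (1.15), Mogs, the first glucosidase of glycan trimming (0.54), and Tmx4, a membrane-bound thioredoxin (-0.41).

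Of 17 subunits of signal peptidase, oligosaccharyltransferase and associated entry factors, 12 rose and 1 fell, beside 14.8% and 15.3% of all probe sets. They included Stt3b (0.62) and Dad1 (0.41) of oligosaccharyltransferase and Sec11a (0.50) of signal peptidase. Of 14 genes acting on the cytosolic side of degradation 5 rose and 1 fell, with the ubiquitin-conjugating enzymes Ube2g2 (0.73) and Ube2j1 (0.36) and the adaptor Ubxn4 (0.32) among the risers. Of 17 genes of export from the ER and retrieval to it 13 rose and 1 fell. The coat subunit Sec23b (0.87) and the GTPase Sar1a (0.50) were higher, and its paralog Sar1b was lower (-0.40). The list medians were 0.49, 0.13, 0.20, 0.50, 0.03 and 0.35 in the order given, beside -0.05 for all probe sets.

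Markers of cell types were counted in the same comparison, where 14.8% of all probe sets were higher and 15.3% lower. The tissue label was borne out by hepatocyte markers, of which 9 of 10 were measured, with Alb at 14.24 in vehicle. The sum given for each list is the log2 of its markers' added unlogged signals, so the brightest markers weigh most. For hepatocyte markers it lay at 16.77 to 16.81 in vehicle and 16.57 to 16.88 at the high dose. Of 11 monocyte and macrophage markers 8 were higher, and their summed signal was 11.51 to 11.88 in vehicle and 11.37 to 13.30 at the high dose. Of 8 neutrophil markers 5 were higher, with sums of 7.18 to 7.59 and 7.19 to 11.59, and 5 of the 8 in vehicle and 4 at the high dose were below the lowest array median. In order of replicate the neutrophil sum was 11.08, 7.27, 7.14, 7.21 and 7.30 in APAP low, 7.69, 7.09, 9.01, 9.90 and 7.99 in APAP medium, 7.19, 11.59, 10.68, 9.42 and 11.29 in APAP high and 11.01, 7.11, 7.32, 7.65 and 7.37 in PQ high at 1 day. The 6 arrays with 31 or more ER genes above vehicle had the 6 highest of these sums. APAP medium replicate 1 had 26 such ER genes with a sum of 7.69 and replicate 3 had 6 with 9.01, and APAP high at 2 days replicate 3 had 4 with 9.14. Of 9 B and plasma cell markers, cells that also hold much ER, 2 were higher, with sums of 8.67 to 8.80 and 8.82 to 9.23, and 7 of the 9 were below the lowest array median in both groups. Sdc1 was by far the brightest of them, with means of 8.35 in vehicle and 8.77 at the high dose, so these sums mostly reflect Sdc1. Cd79b, the other marker above that median, had means of 4.94 and 4.91. Of 6 pancreatic acinar markers 1 was lower and none higher. Of 10 stellate and fibroblast markers 4 were higher and 1 lower, and of 7 endothelial markers 3 were higher and 1 lower. The part of these cells in the ER results was not tested, and in pieces of tissue fewer cells of a type and less RNA per cell cannot be told apart.

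The lower doses of APAP, compared with the same vehicle arrays, had 0 of 38 genes called in limma at either dose, beside 0% of all probe sets at the low dose and 0.243% at the medium dose. At an unadjusted p under 0.05 there were 1 and 7 genes, beside 6.39% and 18.4% of all probe sets, so the share at the medium dose was that of the table. The median difference was 0.14 at the low dose and -0.04 without replicate 1, and 0.24 at the medium dose and 0.09 without replicate 4. Hspa5 read 12.07, 10.96, 10.94, 10.86 and 10.79 at the low dose and 11.28, 10.92, 10.71, 12.01 and 10.81 at the medium dose. At each of these doses 1 array reached the level of the high-dose arrays 2, 3 and 5, and at the low dose all 5 lay above the vehicle arrays, beside 1.13% of all probe sets. Edem1, named after its values were seen, read 9.58, 9.57, 9.45, 9.61 and 9.44 in vehicle and 9.98, 9.79, 9.75, 10.10 and 9.94 at the medium dose. All 5 arrays lay above every vehicle array, as they did for Ero1a (5.38 to 6.73), beside 1.99% of all probe sets, with differences of 0.38 (adjusted p = 0.108) and 0.95 (adjusted p = 0.17). High and medium doses set against each other directly had 0 of 38 called (0.11% of all probe sets), with 9 at an unadjusted p under 0.05 (15.5%).

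For INZ and PQ, 0 of the 38 genes were called in limma in any of the 8 comparisons with vehicle, beside 0.0231% of all probe sets for the high dose of INZ at 1 day and 0% in the others. At an unadjusted p under 0.05 there were 0 genes in each INZ comparison and 0, 1, 3 and 0 for PQ low, medium and high at 1 day and high at 2 days. The shares of all probe sets at that threshold were 5.37%, 2.76%, 4.8% and 4.72% for INZ low, medium, high at 1 day and high at 2 days, and 3.12%, 1.86%, 6.25% and 3.63% for PQ in the same order. Medians lay between -0.06 and 0.04, apart from 0.12 for PQ high at 1 day, which was -0.04 without replicate 1. Hspa5 read 12.36, 10.77, 10.34, 10.70 and 10.45 at the high dose of PQ, Creld2 11.64, 8.38, 7.62, 8.39 and 8.82, and Syvn1 9.83, 8.18, 7.97, 7.96 and 8.11. Replicate 1 alone was high in all 3. Without overlap between groups, beside Derl2 in PQ high, were Hspa5 (0.30) and Manf (0.37), both higher at the low dose of INZ (0.942% of all probe sets), Ero1a (0.36), higher at its high dose at 1 day (0.78%), and Ero1b (0.22), higher at its high dose at 2 days (0.901%). Edem2 (-0.22) was lower without overlap at the low dose of PQ (0.647%) and Derl2 (-0.18) at the medium dose (0.861%), and none of these was called. At 2 days INZ high replicate 3 had 23 of the 38 genes above every vehicle array, with 21.4% of all probe sets, the highest count of that day, and was chosen here after its values were seen.

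The compounds were also set against each other directly at their high doses, which differ in mg/kg. At 1 day APAP exceeded INZ in 21 of 38 genes and was lower in 0, beside 12.8% and 11.9% of all probe sets. Syvn1 differed by 1.07 (SE 0.28, adjusted p = 0.00388), Hspa5 by 0.72 (SE 0.24, adjusted p = 0.021) and Creld2 by 1.70 (SE 0.55, adjusted p = 0.019). Without APAP high replicate 2, 3 or 5 the count was 1 each, and fitted on these 2 groups alone it was 0. Against PQ at 1 day 0 of 38 were called with all arrays (0.387% of all probe sets), with 22 at an unadjusted p under 0.05 (24.8% of all probe sets). Without PQ high replicate 1 the count was 27, and without APAP high replicate 1 it was 23. For the fits on fewer arrays, against INZ and against PQ, shares of all probe sets are not given here. Their counts therefore do not tell the 38 genes from the whole table. At 2 days 0 of 38 were called against INZ (3.83% of all probe sets) and 0 against PQ (3.53%), with 3 and 2 genes at an unadjusted p under 0.05, beside 20.2% and 18.2% of all probe sets.

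On the second day of high-dose APAP, differences of the ER genes from the vehicle of that day lay between -0.28 and 0.23. With limma 0 of 38 genes were called, beside 4.48% of all probe sets, and 1, Derl2, had an unadjusted p under 0.05, beside 18.7%. The exact permutation test was run on all 38 genes. Unadjusted p-values under 0.05 were 0.00794 for Derl2 (-0.24), 0.0238 for Sel1l (-0.19) and 0.0317 for Atf6 (-0.14). Over all probe sets this test was not run at 2 days, so these genes are not set apart from the whole table. The median was -0.04, beside -0.05 for all probe sets, and 10 of the 38 differences were positive. Each array had 3 to 9 of the 38 genes above every vehicle array, beside 15.9% to 22.6% of all probe sets. Hspa5 read 10.69, 10.53, 10.85, 10.74 and 10.86 in vehicle and 10.80, 10.87, 10.37, 10.63 and 10.96 with APAP. The groups overlapped on both sides, and the difference was -0.01 (SE 0.24, adjusted p = 0.991). Creld2 read 8.71, 8.03, 8.70, 8.02 and 8.72 in vehicle and 8.33, 8.20, 8.48, 8.10 and 8.32 with APAP, all inside the vehicle range. Monocyte and macrophage markers were still high at that time, with sums of 11.23 to 11.84 in vehicle and 12.06 to 13.54 with APAP.

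The 2 days were compared directly and through their own vehicles. APAP at 2 days was lower than at 1 day in 27 of 38 genes and higher in 0, beside 11.8% lower and 7.11% higher of all probe sets, with a median of -0.57. Creld2 differed by -2.21 (SE 0.55, adjusted p = 0.00446), Dnajc3 by -0.93 (SE 0.19, adjusted p = 0.000753) and Sel1l by -0.48 (SE 0.10, adjusted p = 0.00127). In Hsp90b1, Dnajc3, Uggt1 and Syvn1 all arrays of day 2 lay below all arrays of day 1, beside 1.8% of all probe sets. Fitted on the 2 groups alone, 0 of 38 were called, and the share of all probe sets in that fit is not given here. Vehicle at 2 days and at 1 day did not differ in a call, with 0 of 38 in limma, 0% of all probe sets and 0 at an unadjusted p under 0.05 (3.15% of all probe sets).

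The test of the change in effect, the 2-day effect minus the 1-day effect, called 1 of 38 genes, beside 2.81% of all probe sets, and 27 had an unadjusted p under 0.05, beside 21.5%. The median of these differences was -0.54. The gene called was Sel1l, which read 7.63, 7.66, 7.75, 7.73 and 7.68 in vehicle and 7.15, 7.60, 7.53, 7.67 and 7.53 with APAP at 2 days. Its effect of 0.37 at 1 day and -0.19 at 2 days differed by -0.57 (SE 0.15, adjusted p = 0.0246), and this call was lost without APAP high 1-day replicate 2, 3 or 5 or 2-day replicate 1, and with these 4 groups fitted alone. Dnajc3 came next at -0.88 (adjusted p = 0.0514), then Syvn1 at -1.23 (adjusted p = 0.0639). Without APAP high 1-day replicate 1 the count was 22, and without replicate 4 it was 8. No share of all probe sets is given beside these 2 counts, so they do not tell the 38 genes from the whole table.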

How the data were processed

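The authors' deposited table holds log2 signals of Affymetrix 3' arrays, 1 per mouse, made with RMA per the submitters' processing notes, which removes background, equalises the distributions of the arrays and combines probes into 1 signal per probe set. Array type, build and software versions are not given in the sources used here. No further normalization was applied. The design text counts 70 animals and 69 arrays were analysed.

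Group means of all 14 groups were fitted with limma 3.58.1 in R 4.3.3 (55 residual and 3.5 prior degrees of freedom), with two-sided tests adjusted by Benjamini-Hochberg over 17306 probe sets in each of 20 comparisons, and the call threshold was an adjusted p of 0.05. Where a group varies more than the shared spread, these p-values are too small. Errors after means are SD over mice, those of differences SE. Labels do not say whether mice were treated in batches. The fit was tested on simulated data. Exact permutation tests used all 252 splits of 5 against 5 arrays. Array medians lay between 4.23 and 4.56, and signals below the lowest are called below it, since no detection calls were used.

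The members and all lists were chosen with earlier results of these data known, and so were the 3 arrays left out in an alternative. Values in every array are given by rule for Xbp1, Atf6 and Ern1 and, per role, for the 2 genes with the smallest adjusted p at each day of the high dose of APAP. For pathway lists up to 3 genes per list were named by adjusted p. Other genes named with array values were chosen after their values were seen. Replicate numbers follow the order of the records and pair nothing. Alternatives are listed in the closing section. Promoter windows were matched by Entrez gene identifier, and figures drawn with matplotlib 3.10.9 in Python 3.11.15.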

Additional observations from a re-analysis of the deposited data

Results flagged for a closer look

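For the 19 genes chosen by rule for values in every array, the vehicle groups, the APAP groups and PQ high at 1 day were examined. Of these 133 pairs of a gene and a group, 27 had an array whose gap to its nearest neighbour exceeded Dixon's 95% critical value. Chance would give about 1 in 20, or 6.65, but the genes moved together, so the 27 are not separate results. APAP low replicate 1 gave 12 of them and PQ high replicate 1 gave 10.

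In APAP low at 1 day, replicate 1 was the highest array by such a gap in 12 genes. Its log2 signals were 12.07 for Hspa5, 6.46 for Hyou1, 9.90 for Dnajc3, 7.44 for Ero1a, 11.45 for Creld2 and 8.07 for Uggt1. They were 8.09 for Sel1l, 9.75 for Syvn1, 9.26 for Sec61a1, 9.60 for Ssr2, 12.41 for Ssr3 and 12.29 for Ssr4.

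In PQ high at 1 day, replicate 1 was the highest in 10 genes, with 12.36 for Hspa5, 10.38 for Dnajc3, 6.97 for Ero1a, 10.65 for Fkbp2 and 8.10 for Uggt1. It read 9.83 for Syvn1, 8.97 for Sec61a1, 9.70 for Ssr2, 12.46 for Ssr3 and 12.16 for Ssr4. Replicate 4 of APAP medium was the highest for Sel1l (8.15) and Syvn1 (9.90).

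In APAP high at 2 days, Sel1l was lowest in replicate 1 (7.15) and Syvn1 in replicate 3 (7.79), and in vehicle at 2 days Ero1b was lowest in replicate 2 (8.97). APAP high at 1 day had no such array, since its high and low arrays form a spread without a lone value. The effect of APAP on Sel1l differed between the days by -0.57 in limma's test of that difference (adjusted p = 0.0246).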

How the results depend on the processing

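The 27 genes called for APAP high at 1 day against vehicle became 21 with arrays centred on their medians, 30 after quantile normalization, 33 with array weights and 0 when only these 10 arrays were fitted, and 8 to 31 when 1 array was left out. These and the following counts are of the listed ER genes only, and shares of all probe sets are not given beside them. A change in these counts is therefore not told apart from a change over the whole table. The 27 ER genes called between APAP high at 2 days and 1 day became 0 in a fit of those groups alone. They became 14 to 30 with 1 array left out. The change in effect, with 1 gene called, gave 3 without dim probe sets, 30 with array weights, 2 with title numbers above 190 as a block, 0 with the groups compared alone, 23 with title numbers up to 190, 27 without the 3 arrays that stand apart (APAP low, APAP high and PQ high replicate 1) and 0 to 22 with 1 array left out. These 3 arrays were picked after their values were seen, so counts without them are no independent check. APAP medium replicate 4, at 61.61 on the first principal component, was kept. Array weights gave the same 3 arrays little weight, 0.17 for APAP low, 0.13 for APAP high and 0.14 for PQ high replicate 1. Title numbers up to 190 leave out APAP high replicate 1 and PQ high replicate 1. Counts under these settings are therefore not separate checks of one another. APAP high against medium went from 0 to 30 with array weights and 26 without the 3 arrays (0 to 11 with 1 array left out), and APAP high against INZ high at 1 day from 21 to 32, 32 and, with the groups alone, 0 (1 to 30, and 11 without INZ high replicate 5). APAP high against PQ high at 1 day went from 0 to 2 without dim probe sets, 31 with array weights, 31 up to number 190 and 31 without the 3 arrays (0 to 27). APAP medium against vehicle went from 0 to 2 with array weights, 1 up to number 190, 3 without the 3 arrays and 1 with the vehicles of both days (0 with any array left out). APAP high against vehicle at 2 days went from 0 to 1 without dim probe sets, with array weights, without the 3 arrays and with both vehicles (0 to 1). Against INZ at 2 days 1 was called without dim probe sets, with array weights, with the block and without the 3 arrays (0 to 1), and against PQ at 2 days 1 with array weights. Counts of 0 for APAP low, for INZ and PQ against vehicle and for the vehicles of the days kept that value in all alternatives run for them. The sign turned for Fkbp2 with arrays centred on their medians (-0.0551), for Atf6 without 1 array (-0.0775 to 0.0458, above 0 without APAP high replicate 2), and for Os9 with the block (0.0191), up to number 190 (0.0404), without the 3 arrays (0.0404), with both vehicles (0.0389) and without 1 array (-0.0551 to 0.0404, above 0 without APAP high replicate 1 or vehicle replicate 2), none of them called. The causes were not tested, and a fit of the groups alone changes both the number of arrays and the spread used. No paired analysis was possible because the labels number no replicates and each mouse gave 1 array. What limits the values is the number of arrays per group and, for dim genes such as Ern1, signal close to the array median.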
